A study of Homo sapiens and Mus musculus with 10 samples.

Results

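The olfactory receptor genes of human chromosome 11 were taken as the GENCODE protein-coding genes on that chromosome with a receptor symbol. Such a symbol is OR, digits, 1 or 2 letters, digits and an optional further letter. The rule found 178 genes of 19970 protein-coding genes. A further 237 receptor genes lie on other chromosomes, and chromosome 11 holds 1139 other protein-coding genes. Short-read bulk ATAC-seq, which marks open chromatin by where the Tn5 transposase inserts adapters, was measured in 4 untreated human cell lines with 2 replicates each. GM12878 is a B-lymphoblastoid line, HEK293T an embryonic kidney line, HFF1 a foreskin fibroblast line and K562 an erythroleukaemia line. No label says whether replicates came from separate cultures, so p-values measure only the spread between these libraries, which may be technical. The 2 mouse libraries of the series were not used.

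Marker promoters were checked against the labels. CD79A, CD79B and MS4A1 were called in GM12878 alone, GATA1 and TAL1 in K562 alone, COL3A1 and TWIST2 in HFF1 alone, and PAX2 and LHX1 in HEK293T alone. GFI1B was called in all 4 lines, and KLF1 had no peak in any library.

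Olfactory receptors are G-protein-coupled receptors for odorants, and most have their coding sequence in a single exon. A mature olfactory sensory neuron expresses 1 receptor allele, chosen from genes that are otherwise packed in constitutive heterochromatin. None of the 4 lines is a sensory neuron, so the measurements describe the genes outside the tissue in which they work. Of 6 marker genes of these neurons, OMP and the channel subunit CNGA2 had no promoter peak in any of the 8 libraries and GNG13 had one in 1 library. GNAL, ADCY3 and the other channel subunit, CNGA4, had one in all 8, with CNGA4 at folds from 10.1 to 14.3. In GM12878, HEK293T and K562 these folds equal those of FHIP1B, another gene of chromosome 11. The peak there was counted at both genes and cannot be assigned to CNGA4 alone. Of the 178 genes, 57 belong to the class I families and 121 to class II, and 174 have 1 coding exon.

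The sequences of 5 sites with a listed peak, and of 2 stretches before the start of genes without one, are given as examples. The first 5 are 121 bases of GRCh38 centred on a peak summit, on the plus strand, from receptor genes with a promoter peak in both replicates of a line. Capitals mark a TGANTCA match, the AP-1 consensus, and none of the 5 holds an AGATAA match, the GATA consensus.
OR51D1, chr11:4637020-4637140: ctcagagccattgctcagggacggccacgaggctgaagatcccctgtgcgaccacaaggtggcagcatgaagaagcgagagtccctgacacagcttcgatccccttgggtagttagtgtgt
OR52N2, chr11:5808542-5808662: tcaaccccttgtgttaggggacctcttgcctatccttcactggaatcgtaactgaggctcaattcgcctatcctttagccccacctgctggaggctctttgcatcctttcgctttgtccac
OR2AG2, chr11:6772636-6772756: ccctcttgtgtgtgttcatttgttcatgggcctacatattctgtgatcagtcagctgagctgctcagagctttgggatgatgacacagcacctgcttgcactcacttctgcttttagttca
OR4C16, chr11:55572708-55572828: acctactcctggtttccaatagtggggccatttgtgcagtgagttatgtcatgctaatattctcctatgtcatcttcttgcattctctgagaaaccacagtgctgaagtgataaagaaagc
OR8G2P, chr11:124224971-124225091: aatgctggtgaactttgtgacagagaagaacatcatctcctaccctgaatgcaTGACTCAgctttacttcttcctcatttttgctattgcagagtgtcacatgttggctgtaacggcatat

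The other 2 are the 250 bases before the start of genes with no promoter peak in any library, from the cluster from 54.6 to 57.0 Mb. Both genes lie on the plus strand of GRCh38, and capitals mark TATAAA (the TATA box) and TAATTA (a homeodomain core) on either strand.
OR5D3P, chr11:55723526-55723775: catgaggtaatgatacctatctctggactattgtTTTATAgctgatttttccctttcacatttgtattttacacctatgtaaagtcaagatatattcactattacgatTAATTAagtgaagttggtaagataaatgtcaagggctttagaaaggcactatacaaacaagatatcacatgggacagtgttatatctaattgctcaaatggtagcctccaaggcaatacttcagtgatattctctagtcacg
OR5L1, chr11:55811117-55811366: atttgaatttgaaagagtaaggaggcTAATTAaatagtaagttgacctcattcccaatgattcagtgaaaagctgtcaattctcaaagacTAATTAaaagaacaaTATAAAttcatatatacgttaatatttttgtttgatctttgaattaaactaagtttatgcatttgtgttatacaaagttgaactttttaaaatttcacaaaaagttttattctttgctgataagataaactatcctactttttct

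Receptor promoters were poor in G and C. Over 300 bases around the canonical start, their median GC content was 37.2%, against 63.7% over all protein-coding promoters. The ratio of observed to expected CpG exceeded 0.6 in 3 of 178 receptor promoters (1.69%) and in 67.4% of all promoters. TATAAA, searched on both strands, occurred in 62 receptor promoters (34.8%) against 9.73% of all promoters, and TAATTA in 40 (22.5%) against 3.05%. CCCNNGGGA, a short form of the EBF consensus, occurred in 9 (5.06%) against 10.0%. Receptor promoters on other chromosomes had similar shares, with TATAAA in 34.6% and TAATTA in 21.1%. TATAAA and TAATTA are rich in A and T, as the promoters are, while CCCNNGGGA is rich in G and C. A match is a description of letters only.

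Promoter peaks were rare at receptor genes in all 4 lines. A peak was counted at a gene when it touched the window reaching 1 kb to each side of any of its annotated starts. Such a peak need not lie at a promoter. Over the 8 libraries there were 57 pairs of a peak and a receptor gene, and 31 had the summit inside the gene. GM12878 had a promoter peak in both replicates at 6 of 178 receptor genes (3.37%), against 71.9% of all protein-coding genes. HEK293T had 2 (1.12%), against 67.8%. HFF1 had 4 (2.25%), against 76.2%. K562 had 8 (4.49%), against 70.4%. In both replicates of at least 1 line, 15 receptor genes had a peak, against 82.9% of all genes, and 1 had it in all 4 lines, against 59.7%. At least 1 library had a peak at 26 receptor genes (14.6%), against 85.3%, and 152 had none. The other genes of chromosome 11 lay between 67.6% and 77.8% per line, and receptor genes on other chromosomes between 0 and 10 genes of 237.

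**Figure D1:**
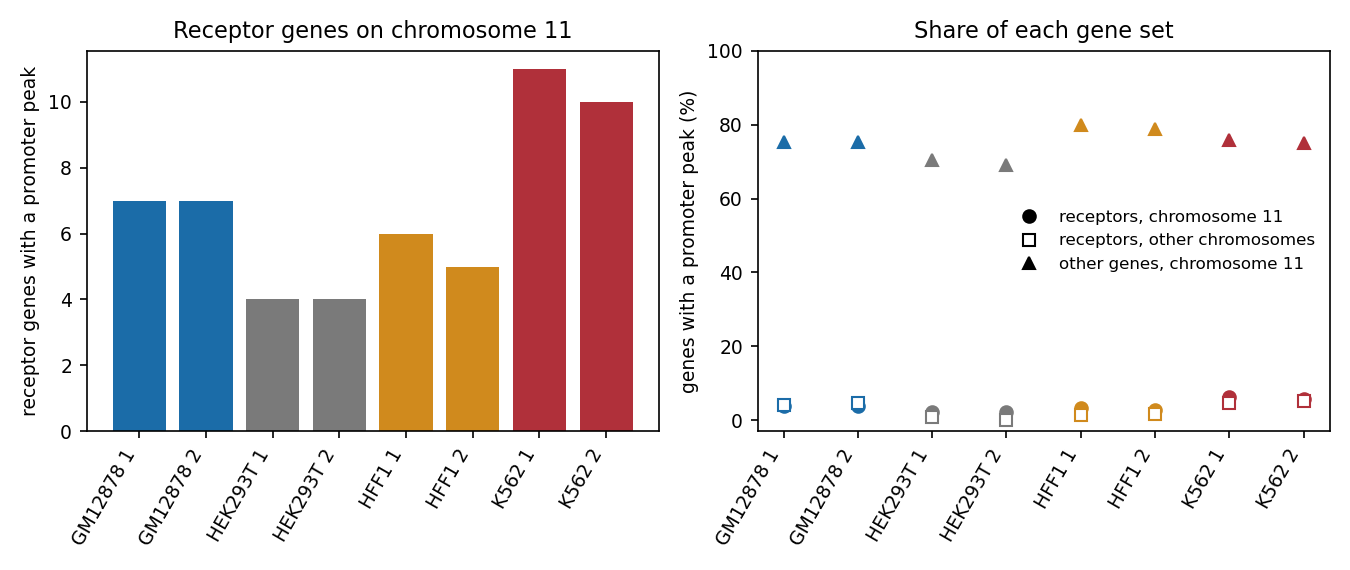
Receptor genes of chromosome 11 with a promoter peak in each library (left, number of genes) and the share of 3 gene sets with one (right, percent); each bar or point is 1 library, coloured by line. The 2 K562 libraries had 11 and 10 receptor genes with a peak, and both receptor sets lay near the bottom of the percent scale in every library.

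By library, 7 and 7 receptor genes had a promoter peak in GM12878, 4 and 4 in HEK293T, 6 and 5 in HFF1, and 11 and 10 in K562. The replicates of 1 line did not overlap those of another. This also held over all protein-coding genes, where HEK293T was again lowest but HFF1 was highest. Their shares with a promoter peak were 73.2% and 73.4% in GM12878 and 69.8% and 69.5% in HEK293T. In HFF1 they were 77.9% and 77.2%, and in K562 72.5% and 71.5%. The lines differed in this number (eta squared 0.979, adjusted p = 0.0214, exact one-sided permutation over all pairings of the 8 libraries, 9 tests). With 2 libraries a line, an exact permutation test of 1 line against another cannot reach 0.05, and no single pair of lines was tested. The lists differ in length, from 52137 to 127359 peaks, and with 50000 peaks kept per library the adjusted exact permutation p was 0.129. K562 fell from 8 to 5 genes when only the canonical start was used. By library, GM12878 then had 7 and 7 genes and K562 7 and 6, so these 2 lines overlapped.

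The annotated start of a receptor gene often is its start codon. This held for 84 of 178 canonical transcripts (47.2%), against 1.58% of the other genes on chromosome 11. Of those 84 genes, 9 had a promoter peak in some library (10.7%), and of the 94 with a start upstream of the codon 17 had one (18.1%). A promoter that lies further upstream than the annotation reaches would not be counted. The distance to the nearest peak needs no window: its median over the receptor genes lay between 28.6 and 54.5 kb in the 8 libraries, against 0.152 to 0.227 kb for the other genes of the chromosome. Between 18 and 39 receptor genes had a summit within 10 kb of the canonical start, and between 31 and 66 had none within 100 kb.

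OR51D1, a class I receptor, was the 1 receptor gene with a promoter peak in all 8 libraries. The fold of each peak over its local background is the authors' own value and describes peaks within a list. It was 17.7 and 18.8 in GM12878, 16.6 and 13.7 in HEK293T, 8.90 and 7.51 in HFF1, and 11.1 and 11.3 in K562. The summits lay between 414 and 387 bp upstream of the start at 4637477, and the peaks together covered chr11:4636937-4637547.

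OR52N2, also class I, had a promoter peak in the 6 libraries of 3 lines. The fold was 17.5 and 16.4 in GM12878, 13.7 and 13.0 in HEK293T, and 13.4 and 11.7 in HFF1. Neither K562 library listed a peak there. The summits lay between 322 and 302 bp upstream of the start at 5808924. OR51D1 and OR52N2 were the only receptor genes called in HEK293T.

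The other 13 called genes had their peak in both replicates of 1 line. In GM12878 alone these were OR2AG2, OR4C16, OR52H1 and OR5B21. OR2AG2 had folds of 15.1 and 14.1, with summits 720 and 739 bp upstream of its start. OR4C16 had folds of 9.59 and 12.8, with summits 667 and 640 bp downstream, inside its coding exon. OR52H1 had folds of 6.88 and 6.37 and OR5B21 of 6.38 and 5.94. The OR5B21 summits lay 1029 and 1025 bp downstream of the start, outside the window, which only an end of each peak touched.

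K562 had the most called genes when all annotated starts were used, but with the canonical start alone it had 5, against 6 in GM12878. OR8G2P had folds of 10.95 and 10.8, with summits 299 and 343 bp downstream of its start. That start belongs to a transcript annotated as protein_coding_LoF (loss of function). OR51T1 had folds of 9.38 and 8.12 at its higher peak, and a second peak in both replicates. OR2AT4, the only receptor gene near 75.1 Mb, had folds of 4.03 and 4.81, with summits 84 and 85 bp upstream. OR52B6 had 5.19 and 4.66, at summits on opposite sides of the start.

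The K562 peaks of OR51B5, OR8B8 and OR9Q1 lay at starts other than the canonical one. OR51B5 had folds of 8.38 and 8.12 at a start 162 kb from its canonical start. The same peak was counted at HBG2 and HBE1, fetal and embryonic globin genes, so it is 1 peak for 3 genes. OR9Q1 had 5.92 and 5.56 at a start 156 kb away from the canonical one, and OR8B8 had 5.38 and 3.72.

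HFF1 called OR51M1 and OR8A1 besides OR51D1 and OR52N2. OR51M1 had folds of 3.85 and 4.94, and OR8A1 3.47 and 3.91. The 2 OR8A1 peaks did not share a position, with summits at 124570615 and 124570166. A −log10 q of at least 5 left HFF1 with 2 receptor genes.

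**Figure D2:**
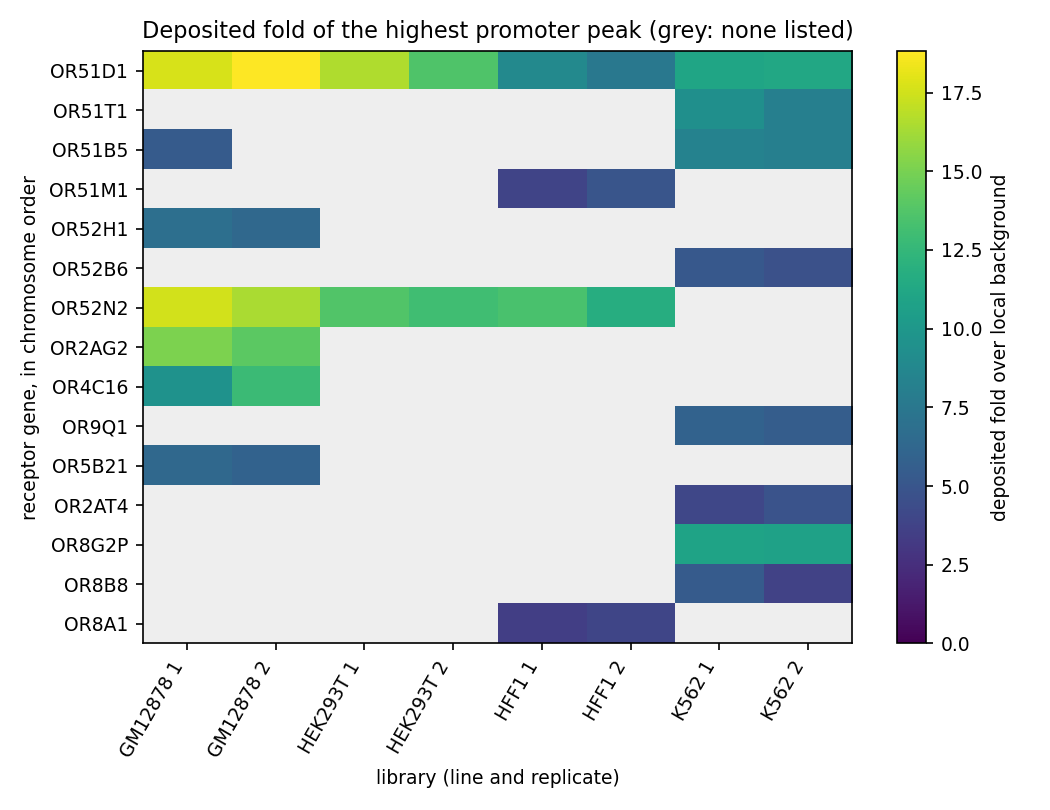
Deposited fold of the highest promoter peak (colour, ratio over local background) for the 15 receptor genes with a peak in both replicates of a line (rows) in each library (columns); grey means no peak was listed. OR51D1 is filled in all 8 columns and OR52N2 in 6, and the single GM12878 cell of OR51B5 is a peak at another start than its K562 peak.

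A further 11 receptor genes had a peak without both replicates of any line, 9 of them in 1 library. OR51C1P and OR51E2 shared 1 peak in HEK293T replicate 1. By class, 12 of 57 class I and 14 of 121 class II genes had a peak in some library. Sequence uniqueness was high in most windows at canonical receptor starts. The median share of unique 50-base words was 100%, the lowest was 67.4%, and 21 of 178 windows were under 90%. Among the other genes of chromosome 11, 68 of 1139 were under 90%. Of the 21 receptor windows under 90%, 20 belonged to genes without a peak in any library, where reads may be harder to place.

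Most receptor genes lie in 5 clusters (at least 5 genes, neighbours at most 1 Mb apart), which hold 174 of the 178 over 8.74 Mb. They run from 4.4 to 7.9 Mb with 69 receptor genes, from 48.2 to 48.5 Mb with 7, from 54.6 to 57.0 Mb with 53, from 58.0 to 59.7 Mb with 21 and from 123.8 to 124.6 Mb with 24. The first also holds 45 other protein-coding genes, among them the beta-like globins and several TRIM genes, and the fourth 15.

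Peaks were sparser in the clusters than in the rest of the chromosome in all 8 libraries. The clusters held 229 and 231 summits in GM12878, 127 and 135 in HEK293T, 242 and 241 in HFF1, and 248 and 222 in K562. Divided by the density in the rest of chromosome 11, the ratio was 0.690 and 0.676 in GM12878, 0.760 and 0.808 in HEK293T, 0.576 and 0.607 in HFF1, and 0.896 and 0.876 in K562. The lines did not overlap, and K562 was highest and HFF1 lowest. The ratio became 1.07 and 0.992 in K562 when 10 kb around other genes was left out. With 20000 peaks per library it was 1.03 in both HEK293T libraries, against 0.926 and 0.893 in K562, so HEK293T was then highest. The ratio differed between lines (eta squared 0.980, adjusted p = 0.0214, exact one-sided permutation), but not past the threshold with 50000 peaks per library (adjusted p = 0.0612, exact permutation; the distal ratio below gave the same). The density itself did not pass (adjusted p = 0.0857, exact permutation). Without promoter peaks the ratio was 0.691 ± 0.00358 (SD, n = 2) in GM12878, 0.834 ± 0.0108 in HEK293T, 0.553 ± 0.0200 in HFF1 and 0.952 ± 0.00697 in K562, and it differed between lines (adjusted p = 0.0214, exact permutation). With 20000 peaks per library this distal ratio passed equal density in HEK293T (1.18 and 1.25) and K562 (1.14 and 1.10) and was 0.298 and 0.414 in HFF1.

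**Figure D3:**
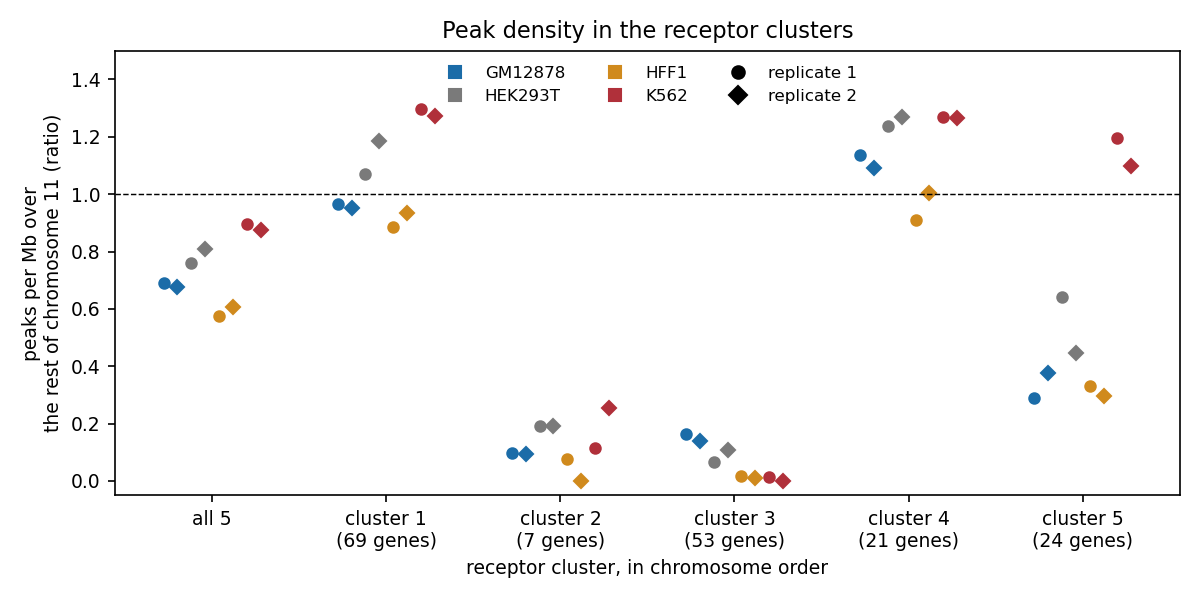
Peaks per Mb in each receptor cluster over peaks per Mb in the rest of chromosome 11 (ratio, dashed line at equal density), for each library by line and replicate. The third cluster lies between 0 and 0.165 in all 8 libraries, and the last lies above equal density in K562 alone.

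The cluster from 54.6 to 57.0 Mb, with 53 receptor genes, was almost without peaks. It held 15 and 13 summits in GM12878, 3 and 5 in HEK293T, 2 and 1 in HFF1, and 1 and 0 in K562, with ratios between 0 and 0.165. The longest stretch without a summit ran from 970 kb in GM12878 to 2387 kb in K562 replicate 2, where it is the whole cluster. The assembly has 0 undetermined bases there. Of 13 regions called in a line, 10 were called in GM12878 alone (76.9%, against 21.3% in the rest of the chromosome), and the one at OR4C16 was the only one within 1 kb of a receptor start. The lines differed (adjusted p = 0.0429, exact permutation), and this rests on few peaks.

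The cluster from 123.8 to 124.6 Mb differed most in K562. It held 9 and 12 summits in GM12878, 10 and 7 in HEK293T, 13 and 11 in HFF1, and 31 and 26 in K562. The ratio was 0.290 and 0.375 in GM12878, 0.640 and 0.448 in HEK293T, 0.331 and 0.296 in HFF1, and 1.20 and 1.10 in K562. Both K562 libraries lay above all 6 others. The lines differed (adjusted p = 0.0367, exact permutation). The call was lost without 10 kb around other genes (0.0571), without HEK293T replicate 1 (0.0735) and without HFF1 replicate 2 (0.0612, all adjusted exact permutation p). K562 alone called 13 of the 26 called regions (50.0%), against 11.2% in the rest of the chromosome. The highest of them by mean fold was the OR8G2P peak at 10.9, and the next, at chr11:124394499-124394758, lay 4381 bp from the start of OR8B3 with a mean fold of 10.1.

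The clusters from 4.4 to 7.9 Mb and from 58.0 to 59.7 Mb had ratios between 0.884 and 1.30 and between 0.911 and 1.27. Both span long stretches of other genes. The adjusted exact permutation p was 0.0214 for the first and 0.0367 for the second. The small cluster from 48.2 to 48.5 Mb held 1 summit in 6 of the 8 libraries, 0 in HFF1 replicate 2 and 2 in K562 replicate 2. Of its 50-base words 79.0% were unique, against 91.2% in the rest of the chromosome. Its ratio gave 0.0367 in the same test, but GM12878 and HEK293T had equal counts there, and the ratios of those 2 lines differ only through the density of the rest of the chromosome, so the test shows no difference in the cluster itself.

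Splitting clusters where neighbours lie over 250 kb apart separated receptor blocks from those stretches. The block from 4.37 to 6.20 Mb, with 57 receptor genes, had 22.4 and 25.1 summits per Mb in GM12878, 13.1 and 14.2 in HEK293T, 21.3 and 20.7 in HFF1, and 38.7 and 32.7 in K562. The next 0.565 Mb, with 19 other genes and no receptor, had 86.7 and 81.4 in GM12878, 53.1 and 58.4 in HEK293T, 93.7 and 97.3 in HFF1, and 79.6 and 83.1 in K562. In every library this stretch was denser than the block before it. Not all stretches were: the one from 6.92 to 7.80 Mb had 29.7 and 21.7 in K562, below the first block. The one from 58.51 to 59.36 Mb had 47.0 in both K562 libraries, below the 64.8 and 50.7 of the block after it, and the one from 54.71 to 55.34 Mb had 0 in all 8 libraries. For the 7 blocks with at least 5 receptor genes, the ratio to the rest of the chromosome was 0.423 in GM12878, 0.504 in HEK293T, 0.316 in HFF1 and 0.737 in K562, lower than with the wider clusters in each line.

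**Figure D4:**
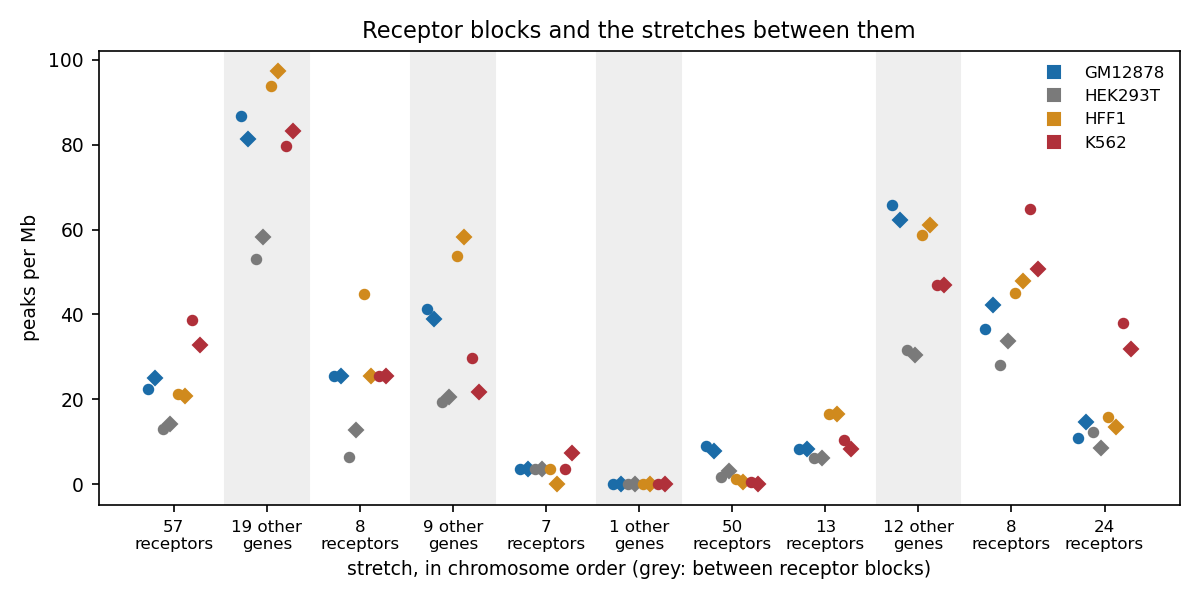
Peaks per Mb in receptor blocks (white, labelled by receptor genes) and in the stretches between blocks of 1 cluster (grey, labelled by other genes), for each library; circles are replicate 1 and diamonds replicate 2. The stretch with 19 other genes lies between 53.1 and 97.3, and the block of 57 receptor genes before it between 13.1 and 38.7.

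Of 65 protein-coding genes of other kinds inside the clusters, 49 had a promoter peak in both replicates of at least 1 line (75.4%, against 82.9% of all genes) and 30 in all 4 (46.2%, against 59.7%). TRIM5, TRIM6, TRIM21, TRIM22, TRIM34 and TRIM68, listed for the first cluster, each had one in some line, and TRIM21, TRIM5 and TRIM68 in all 4. TRIM48, TRIM51 and ENSG00000284732, the 3 other genes of the cluster from 54.6 to 57.0 Mb, had none in any library. Of the 5 beta-like globin genes, HBD, HBG2 and HBE1 were called in K562, and HBD also in HFF1, while HBB and HBG1 had no peak in any library. For HBG2 and HBE1 the K562 folds, 8.38 and 8.12, are those of the peak shared with OR51B5. It lay at chr11:5505503-5505890 in replicate 1, so these 2 calls alone do not show an open promoter at either globin gene.

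Merging the peaks of the 8 libraries gave 529 regions in the clusters, of which 371 were called in a line and 27 lay within 1 kb of a receptor start. GM12878 alone called 76 (20.5% of the called regions, against 21.3% in the rest of the chromosome) and HEK293T alone 8 (2.16% against 2.06%). HFF1 alone called 74 (19.9% against 30.7%) and K562 alone 67 (18.1% against 11.2%). All 4 lines called 72 (19.4% against 13.7%). These shares were not tested. AGATAA, the GATA consensus, was searched on both strands within 150 bases to each side of the summit. It occurred in 27 of the 67 regions called in K562 alone (40.3%), against 33.0% of such regions in the rest of the chromosome. It was also commoner in the clusters over all regions (20.2% against 16.0%) and over those called in all 4 lines (16.7% against 7.54%). The CTCF consensus occurred in 13.9% of the cluster regions called in all 4 lines, against 11.9% in the rest.

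Genes by which sensory neurons choose, silence and use receptors were listed as well. The background is 82.9% of all genes called in some line and 59.7% in all 4. All 12 regulators of receptor choice listed had a promoter peak in some line and 6 in all 4 (50.0%), among them LHX2, EBF1 and LDB1, whose proteins act at receptor enhancers. Of 12 heterochromatin genes, 11 had one in all 4 lines (91.7%), and EHMT1 lacked it in 1 HEK293T replicate. Of 13 signal transduction genes, 10 had one in some line (76.9%), including GNAL and ADCY3, the olfactory G protein and adenylyl cyclase. Of 3 trafficking genes, REEP1 and RTP2 had one and RTP1 did not.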

How the data were processed

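The authors deposited 1 narrowPeak list per library. Per the submitters' processing notes the tools were cutadapt 3.2, Bowtie2 2.4.2, Picard and MACS2 2.2.7.1, with builds hg38 and mm10. Each deposited peak has a fold (a linear ratio over local background), a −log10 p and a −log10 q. The lists hold no reads, so depth is unknown, and the lowest deposited −log10 q was 2.00 to 2.05. An unlisted peak is one that did not pass that threshold.

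Gene models came from GENCODE release 44 and sequence from GRCh38. The members and lists were chosen with earlier results of these data known. Peaks on autosomes and X were used, a density counts summits, and a region is called in a line when both replicates have a peak in it. For single clusters, 0.5 was added to counts before the test. Peak names carry the prefix NGS in both GM12878 libraries. In the other 3 lines they carry AH in replicate 1 and BH in replicate 2. GM12878 and its prefix cannot be told apart, and in the other 3 lines prefix and replicate number cannot. Receptor genes named by rule are those with a promoter peak in both replicates of a line. OR51C1P and OR51E2, which share a peak, were named after their values were seen. OR5D3P and OR5L1 are the first 2 genes by position in the cluster from 54.6 to 57.0 Mb that have no promoter peak and hold both TATAAA and TAATTA. Regions named were those called in all 4 lines or in K562 alone with the highest mean fold. Python 3.11.15 with numpy 2.4.6, pandas 2.3.3 and numba 0.67.0 was used, and the test was checked on simulated data. Alternatives were other windows, starts, list lengths, clusters and left-out libraries. Some marker genes are not reported here.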

Additional observations from a re-analysis of the deposited data

Results flagged for a closer look

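The peak density of the clusters over the rest of chromosome 11 differed between the 4 lines in exact permutation tests of the difference itself. The adjusted exact p was 0.0214 for all peaks, 0.0214 for distal peaks and 0.0214 for the cluster from 4.4 to 7.9 Mb. It was 0.0367 for the clusters from 48.2 to 48.5 Mb, from 58.0 to 59.7 Mb and from 123.8 to 124.6 Mb, and 0.0429 for that from 54.6 to 57.0 Mb. For the cluster from 48.2 to 48.5 Mb, 6 of 8 libraries held 1 summit, so that ratio varies mainly with the density of the rest of the chromosome.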

How the results depend on the processing

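All values are adjusted exact permutation p unless named otherwise. With 50000 peaks per library, p was 0.129 for the number of receptor genes with a peak, 0.0612 for the cluster ratio, the distal ratio and the clusters from 4.4 and from 54.6 Mb, and 0.295 for that from 48.2 Mb. With 20000 peaks, p for the number of genes was 0.0857. With HEK293T, HFF1 and K562 only, no p can pass: it was 0.12 for the number of genes, both ratios and the clusters from 4.4 and 123.8 Mb, and 0.2 for the other 3. Leaving out 10 kb around other genes gave 0.0571 for the cluster from 123.8 Mb. Cluster density passed with 50000 peaks (0.0286), 20000 peaks (0.0171), clusters by 250 or 500 kb (0.0171), covered base pairs (0.0171) and without 10 kb around other genes (0.0286).

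Peak-name prefixes follow replicate number in HEK293T, HFF1 and K562. Correlations of replicate deviations between lines lay between -0.0517 and 0.0382, so no pattern shared by replicate number was seen in them. With the replicate block, p was 0.075 for the number of genes, both ratios and the clusters from 4.4 and 54.6 Mb, and 0.0938 for the other 3.

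Called genes in GM12878 were 10 with a 2 kb window, 3 with 50000 peaks and 2 with 20000. In HFF1 they were 2 at a −log10 q of at least 5, 2 with 50000 peaks and 0 with 20000. In K562 they were 5 with the canonical start, 4 with 50000 peaks and 3 with 20000. The median ratio over libraries, 0.725, became 0.858 with 20000 peaks and 0.461 with clusters by 250 or 500 kb. The mean ratio of a line passed equal density in HEK293T with 20000 peaks (1.03) and in K562 without 10 kb around other genes (1.03). In that K562 setting the libraries had 1.07 and 0.992.

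Leaving out 1 library gave p from 0.0171 to 0.0429 for the number of genes and for both ratios, and from 0.0214 to 0.0429 for the cluster from 4.4 Mb. It was 0.0171 to 0.129 for density, which passed without either K562 replicate. It was 0.0429 to 0.152 for 48.2 Mb, which failed without any library but HFF1 replicate 1. It was 0.0171 to 0.075 for 54.6 Mb, failing without either GM12878 or HFF1 replicate or HEK293T replicate 1. It was 0.0214 to 0.0735 for 58.0 Mb, failing without GM12878 replicate 1 or HFF1 replicate 2, and 0.0321 to 0.0735 for 123.8 Mb, failing without HEK293T replicate 1 or HFF1 replicate 2. Called genes were 6 to 7 in GM12878, 2 to 4 in HEK293T, 4 to 6 in HFF1 and 8 to 11 in K562, and the median ratio 0.690 to 0.760.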
